A study of Caenorhabditis elegans with 6 samples.

Results

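The cuticlins are the insoluble proteins of the nematode cuticle, and the genes described here are those whose name in the deposited RNA-seq tables starts with *cut-* or *cutl-* and a number. They take 35 of the 20661 entries of the joined tables. These entries belong to 34 genes, 6 named *cut* (cuticlin) and 28 named *cutl* (cuticlin-like), since *cutl-8* stands on 2 lines for a longer and a shorter gene model on chromosome I (8270474 to 8275506 and 8274149 to 8275506 in the tables). The current annotation of the worm genome, WBcel235, gives such a name to 35 genes, of which *cutl-19* was not analysed here.

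RNA was sequenced from mixed-stage cultures of *Caenorhabditis elegans* grown at 20 °C on OP50 bacteria, with 2 replicates of each of 3 strains. The strains were wild-type N2 (WT), the insulin/IGF-1 receptor mutant *daf-2(e1370)*, written *daf-2(-)*, and the double mutant *daf-16(mgDf50);daf-2(e1370)*, written *daf-16(-);daf-2(-)*, which carries the same receptor allele and also lacks the FOXO transcription factor DAF-16. *daf-2(-)* was compared with WT to find genes that move when insulin signalling is lowered, and with the double mutant to find those whose level differs when DAF-16 is missing as well. Levels are RPKM, the reads of a gene scaled to its length and to the mapped reads of the library. The steps between low RPKM of short genes gave an approximate depth of 9400000 to 15000000 mapped reads per library, with the fewest in *daf-2(-)* replicate 2. *daf-16* itself was at 22.4 to 29.4 RPKM in the WT and *daf-2(-)* libraries and at 6.44 and 4.60 in the double mutant libraries. The labels do not say that replicates came from separate cultures, so the p-values measure the spread between these libraries, which may be technical. The comparisons between strains used limma on log2(RPKM + 1), and an entry was called where the unadjusted p did not exceed 0.05 and the change was 2-fold or more on that scale. Adjusted p-values are over all entries.

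The cuticle is an extracellular coat that the epidermis secretes anew at each moult. Collagens make up its soluble part, and cuticlins are what remains after the collagens have been extracted, held together by cross-links that include dityrosine. Most cuticlins carry a zona pellucida (ZP) domain, through which secreted proteins polymerise into filaments, and several of them shape the alae, the ridges that seam cells lay down along the sides of the first larva, the dauer and the adult. The dauer is the resistant larva that arrests under poor conditions, and strong loss of *daf-2* function makes worms enter it.

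The cuticlins differed widely in level. Of the 35 entries, 3 had a mean of at least 10 RPKM over the 6 libraries (*cut-2*, *cut-4* and *cutl-20*), 21 lay between 1 and 10 and 11 were under 1 RPKM. Thus 24 of 35 reached 1 RPKM, where 69.7% of all entries did. *cut-2* stood far above the rest, at the 97.8th percentile of all entries in WT. At the other end, *cutl-7* had a value only in the double mutant table (0.04 RPKM in both libraries). 29 entries were above 0 in all 6 libraries. The genes are spread over all 6 chromosomes, with 9 on chromosome II, 7 on I, 5 each on IV, V and X and 3 on III.

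*cut-2*, on chromosome V, codes for a cuticlin without a ZP domain that is built of short repeats and becomes cross-linked through its tyrosines. It was at 352 and 293 RPKM in the WT libraries, 50.1 and 50.4 in *daf-2(-)*, and 223 and 177 in the double mutant. Every *daf-2(-)* library lay below every library of the other strains, and the double mutant lay between *daf-2(-)* and WT without overlapping either. In *daf-2(-)* *cut-2* fell by 2.66 on the log2(RPKM + 1) scale against WT (SE 0.16, limma adjusted p = 0.000598), and the mean RPKM of WT was 6.43 times that of *daf-2(-)*. It fell by 1.96 relative to the double mutant (SE 0.16, limma adjusted p = 0.000993), whose mean was 3.98 times higher in RPKM. Between the double mutant and WT the difference was -0.69, with an unadjusted p of 0.00393 in limma and an adjusted p of 0.169, and this change was under 2-fold.

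*cut-1*, on chromosome II, codes for a ZP-domain cuticlin of the dauer alae. It was at 0.15 and 0 RPKM in WT, 1.67 and 5.62 in *daf-2(-)*, and 0.17 and 0.16 in the double mutant. Both *daf-2(-)* libraries were above all others, and they differed from each other more than any other pair of replicates of this gene. By the approximate depths these values stand for about 3 and 0 reads in WT, 34 and 79 in *daf-2(-)*, and 3 in each double mutant library. *cut-1* rose by 1.97 on the log2(RPKM + 1) scale against WT (SE 0.38, limma adjusted p = 0.0152) and, relative to the double mutant, by 1.85 (SE 0.38, limma adjusted p = 0.00976). The added 1 RPKM understates the change of a gene this low. Both differences kept their call when either *daf-2(-)* library was left out, but their size moved with it. Without *daf-2(-)* replicate 1 the log2 differences were 2.63 from WT and 2.51 from the double mutant, and without *daf-2(-)* replicate 2 they were 1.32 and 1.20.

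Because *cut-1* is a gene of the dauer cuticle, the dauer collagen genes *col-2* and *col-40* were read beside it. *col-2* was at 0.42 and 0.08 RPKM in WT, 13.6 and 35.6 in *daf-2(-)*, and 2.13 and 0.36 in the double mutant. *col-40* was at 0.49 and 0.24 RPKM in WT, 16.3 and 42.5 in *daf-2(-)*, and 1.31 and 0.58 in the double mutant. For *cut-1* as for both collagens, *daf-2(-)* replicate 2 was the higher of the *daf-2(-)* libraries. Not all genes of the dauer alae followed this order. In *daf-2(-)* replicates 1 and 2, *cut-5* was at 2.27 and 1.14 RPKM, the reverse order. *cut-6* was slightly higher in replicate 2, at 4.08 and 4.53. Both collagens passed the test in *daf-2(-)* against WT (log2 differences of 4.22 and 4.34) and against the double mutant (3.49 and 3.84). Stage was not recorded by library, and the share of dauer larvae was not tested.

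The other *cut* genes with known roles in alae are ZP-domain genes. *cut-3*, on chromosome II and needed for the alae of the first larva, was at 1.97 and 2.53 RPKM in WT, 1.82 and 2.31 in *daf-2(-)*, and 1.71 and 1.58 in the double mutant. WT and *daf-2(-)* overlapped, with a log2 difference of -0.08 (SE 0.22), whose sign turned under both other scalings of the libraries. *cut-5*, on the X chromosome and needed for the alae of the first larva and of the dauer, was at 0.59 and 0.31 RPKM in WT, 2.27 and 1.14 in *daf-2(-)*, and 0.63 and 0.89 in the double mutant. Both *daf-2(-)* libraries were above the others, but the log2 difference of 0.87 from WT (limma adjusted p = 0.0394) was under 2-fold on that scale, so *cut-5* was not called. This call depended on the settings. *cut-5* was called with a pseudocount of 0.5 RPKM (1.18) or 0.1 RPKM (1.69), after median-ratio scaling (1.03), without WT replicate 1 (1.01) and without *daf-2(-)* replicate 2 (1.18), while without *daf-2(-)* replicate 1 the difference was 0.57 and was not called.

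*cut-6*, on chromosome III, joins a ZP domain to a von Willebrand factor A domain and is needed for dauer alae and body shape. It was at 2.34 and 2.15 RPKM in WT, 4.08 and 4.53 in *daf-2(-)*, and 1.77 and 2.26 in the double mutant. *daf-2(-)* was again above WT, by 0.71 (limma adjusted p = 0.0567), and above the double mutant, by 0.82 (limma adjusted p = 0.0275). Both were under 2-fold on the log2(RPKM + 1) scale. In mean RPKM *daf-2(-)* was at 1.92 times WT and 2.14 times the double mutant. The difference from the double mutant was called after median-ratio scaling (1.14), after quantile normalization (1.07) and with a pseudocount of 0.1 RPKM (1.07). *cut-4*, on chromosome II, was at 23.6 and 23.01 RPKM in WT, 15.9 and 14.9 in *daf-2(-)*, and 16.2 and 19.2 in the double mutant. Both mutants lay below WT, with log2 differences of -0.57 for *daf-2(-)* (limma adjusted p = 0.046) and -0.38 for the double mutant (limma adjusted p = 0.272), neither of which was called.

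**Figure D1:**
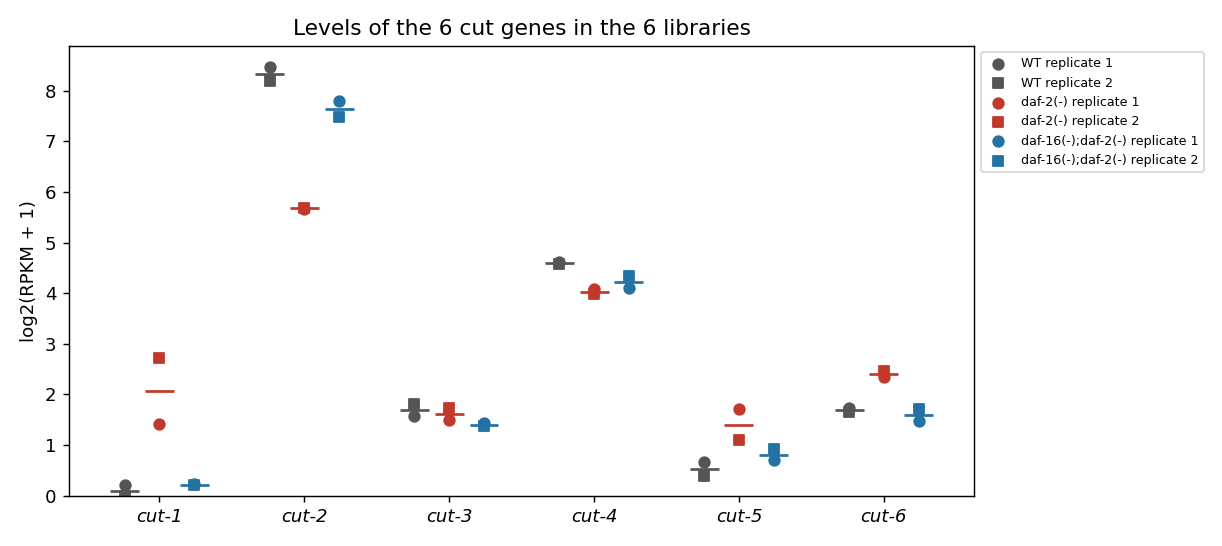
RPKM of the 6 *cut* genes in the 6 libraries, drawn as log2(RPKM + 1), with a point for each library (circles for replicate 1, squares for replicate 2) and a line at the mean of each strain. *cut-2* is lowest in both *daf-2(-)* libraries (50.1 and 50.4 RPKM), while *cut-1*, *cut-5* and *cut-6* are highest there.

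Since *cut-2* is so much more abundant than the rest, it set the total. Summed over the 35 entries, the cuticlins came to 496 and 411 RPKM in WT, 138 and 128 in *daf-2(-)*, and 331 and 290 in the double mutant. *cut-2* made up 71.1% and 71.4% of this sum in WT, 36.4% and 39.3% in *daf-2(-)*, and 67.2% and 61.0% in the double mutant. Without *cut-2* the sum was 143 and 118 RPKM in WT, 87.5 and 77.7 in *daf-2(-)*, and 108 and 113 in the double mutant. In both forms of the sum the *daf-2(-)* libraries were the lowest and did not overlap the others, and without *cut-2* the double mutant lay closer to WT than to *daf-2(-)*. These sums are of RPKM without further scaling. The median-ratio factors were 1.013 and 1.076 in WT, 0.916 and 0.785 in *daf-2(-)*, and 1.099 and 1.184 in the double mutant. Without *cut-2*, division by these factors leaves *daf-2(-)* overlapping the double mutant, which then lies closer to *daf-2(-)* than to WT. Both that separation and the closeness of the double mutant to WT therefore depend on the scaling. These are bulk samples, in which fewer cells of a type and less RNA per cell cannot be told apart.

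**Figure D2:**
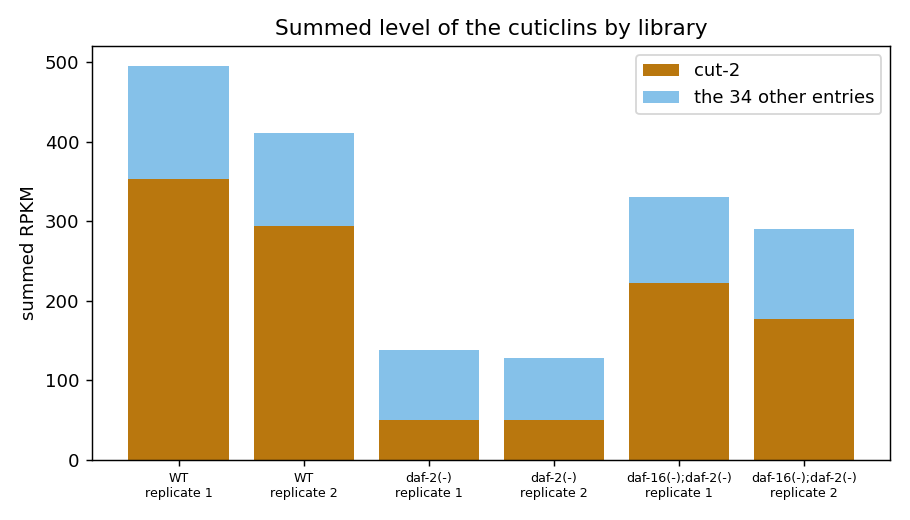
Summed RPKM of the 35 cuticlin entries in each library, split into *cut-2* and the 34 other entries. The *daf-2(-)* bars are the shortest, at 138 and 128 RPKM, and *cut-2* takes 36.4% and 39.3% of them against 61.0% to 71.4% in the other libraries.

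Among the *cutl* genes, whose individual roles are less studied, 0 entries were called higher in *daf-2(-)* than in WT (4.84% of all entries were) and 4 were called lower (7.78% of all entries were). *cutl-18*, on chromosome V, was at 8.95 and 7.72 RPKM in WT, 2.68 and 1.51 in *daf-2(-)*, and 5.46 and 6.77 in the double mutant. The 3 strains did not overlap, with *daf-2(-)* lowest. *cutl-18* fell by 1.62 on the log2 scale against WT (SE 0.27, limma adjusted p = 0.011) and, relative to the double mutant, by 1.22 (SE 0.27, limma adjusted p = 0.013). The second call was lost without *daf-2(-)* replicate 2 (-0.95).

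*cutl-20*, on chromosome I and the most abundant of the *cutl* genes, was at 20.4 and 16.1 RPKM in WT, 9.48 and 7.39 in *daf-2(-)*, and 12.9 and 15.96 in the double mutant. It fell by 1.03 on the log2 scale against WT (SE 0.22, limma adjusted p = 0.0194), and its difference of -0.71 from the double mutant was not called. In WBcel235, 17.3% of its exon bases overlap *shc-1* on the same strand, so reads of the 2 genes may be mixed. *cutl-11*, on the X chromosome, was at 2.43 RPKM in both WT libraries, 0.98 and 0.36 in *daf-2(-)*, and 2.06 and 2.11 in the double mutant. Its *daf-2(-)* libraries were the lowest, and it fell by 1.06 on the log2 scale against WT (SE 0.24, limma adjusted p = 0.0211). Without *daf-2(-)* replicate 2 neither gene was called against WT (-0.87 for *cutl-20* and -0.79 for *cutl-11*), and *cutl-20* was also not called without WT replicate 1 (-0.87).

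*cutl-29*, also on the X chromosome, was at 8.99 and 9.27 RPKM in WT, 5.25 and 2.92 in *daf-2(-)*, and 4.05 and 6.30 in the double mutant. It was called lower than WT in *daf-2(-)* with a log2 difference of -1.03, just past 2-fold, but *daf-2(-)* and the double mutant overlapped (-0.29), and the double mutant was itself below WT with a difference of -0.74 (unadjusted p = 0.0493 in limma). The call against WT was lost without WT replicate 1 (-1.05), WT replicate 2 (-1.01) or *daf-2(-)* replicate 2 (-0.70). This pattern differs in form from that of *cutl-18*, where the double mutant stood apart from *daf-2(-)*, although the difference between the patterns was not tested.

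A further 2 entries on chromosome I were called against the double mutant, in which each was at its highest mean. *cutl-10* was at 2.27 and 1.10 RPKM in WT, 0.76 and 0.77 in *daf-2(-)*, and 4.78 and 1.85 in the double mutant, and was lower in *daf-2(-)* than in the double mutant by a log2 difference of -1.20 (SE 0.38, limma adjusted p = 0.0445). The longer model of *cutl-8* was at 1.74 and 0.75 RPKM in WT, 0.38 and 0.17 in *daf-2(-)*, and 2.45 and 1.30 in the double mutant, with a log2 difference of -1.15 (SE 0.29, limma adjusted p = 0.0208). Both genes had a wide spread between the double mutant replicates. Without double mutant replicate 1 the difference of *cutl-10* was -0.69 and that of the longer *cutl-8* -0.86, and neither was called, while without replicate 2 they were -1.71 and -1.44. Both calls were also lost when either *daf-2(-)* library was left out, with differences of -1.20 and -1.21 for *cutl-10* and -1.27 and -1.03 for *cutl-8*. Against WT the differences of -0.57 and -0.79 were not called, although the longer *cutl-8* was called with a pseudocount of 0.5 RPKM (-1.12) or 0.1 RPKM (-1.80) and without WT replicate 2 (-1.11). Whether the 2 comparisons differ for these genes was not tested. The shorter model of *cutl-8* lies inside the longer one, so reads could be shared between them, and its values (0.12 and 0 RPKM in WT, 0.72 and 0.64 in the double mutant, 0.14 and 1.20 in *daf-2(-)*) are uncertain.

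**Figure D3:**
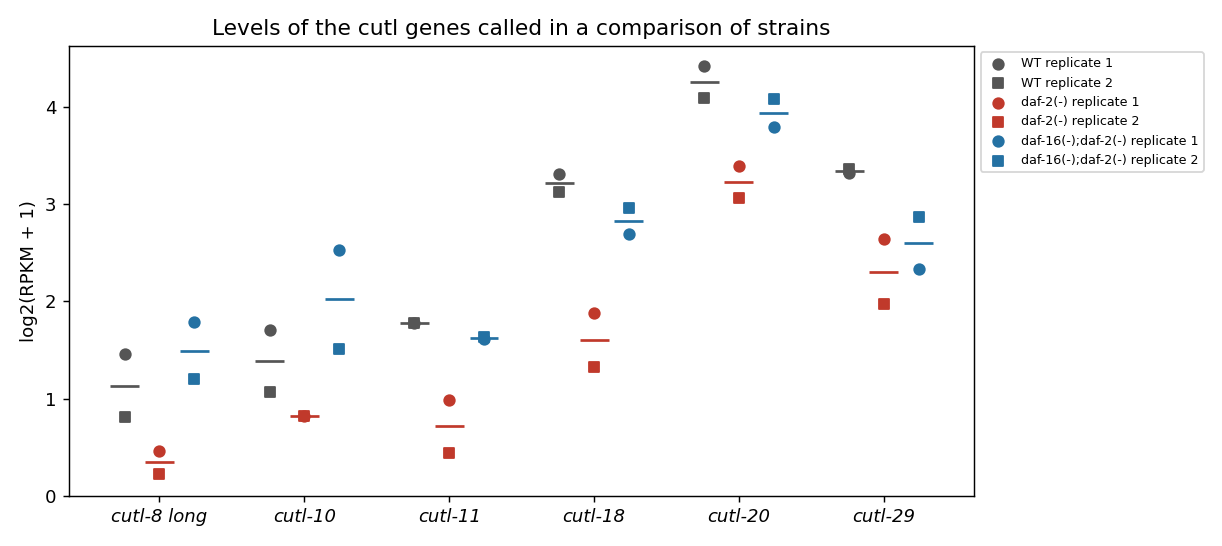
RPKM of the 6 *cutl* entries called in at least 1 comparison, drawn as log2(RPKM + 1), with a point for each library and a line at the mean of each strain. The *daf-2(-)* means are the lowest for all 6, while *cutl-29* overlaps between *daf-2(-)* and the double mutant.

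Over the whole family, 1 of 35 entries was called higher in *daf-2(-)* than in WT (*cut-1*), where 4.84% of all 20661 entries were. A further 5 were called lower (*cut-2*, *cutl-11*, *cutl-18*, *cutl-20* and *cutl-29*), or 14.3%, against a background of 7.78%. The same 6 entries were called when the adjusted p was used, against backgrounds of 4.54% and 7.15%. At p of at most 0.05 alone, 3 entries were higher, all of them *cut* genes (*cut-1*, *cut-5* and *cut-6*), against a background of 12.4%, and 15 were lower against 27.6%. Both *daf-2(-)* libraries lay below both WT libraries for 21 entries, or 60.0%, against 42.4% of all entries, and above them for 6 entries against 22%. The log2 difference was below 0 for 28 of 35 entries, against 59.3% of all, and its median was -0.55, where the median of all entries was -0.11. Over the 24 entries with a mean of at least 1 RPKM the median was -0.59, against -0.28 for all entries at that level.

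These counts moved with the scaling and with single libraries. Median-ratio scaling shifted the median of all entries to 0.00 and that of the cuticlins to -0.28, and it called 2 entries higher and 2 lower than WT in place of 1 and 5. The number called lower was 2 without *daf-2(-)* replicate 2, 3 without WT replicate 1 and 9 without WT replicate 2, and the number called higher was 2 without WT replicate 1 and without either *daf-2(-)* replicate. *cut-1*, *cut-2* and *cutl-18* kept their calls against WT in all of these fits.

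Against the double mutant, 1 entry was called higher in *daf-2(-)* (*cut-1*; background 5.65%) and 4 were called lower (*cut-2*, *cutl-18*, *cutl-10* and the longer *cutl-8*), or 11.4% against a background of 15.8%. With so few entries called, this share is not read as a difference from all entries, and 9 were called lower at a pseudocount of 0.1 RPKM. The same 5 entries were called at the adjusted p (backgrounds 5.46% and 15.5%). At p of 0.05 or less alone, 4 entries were higher (*cut-1*, *cut-5*, *cut-6* and *cutl-24*), against 12.5% of all entries, and 14 were lower, against 31.9%. Both *daf-2(-)* libraries lay below both double mutant libraries for 23 entries, or 65.7%, against 43.3% of all entries, and above them for 5 against 19.9%. The difference was below 0 for 28 entries, against 61.6% of all. The median log2 difference was -0.25, close to the -0.15 of all entries, and -0.63 against -0.34 over entries with a mean of at least 1 RPKM. Median-ratio scaling moved the median of all entries to 0.01 and that of the cuticlins to -0.09, with 3 entries called higher and 1 lower. Without *daf-2(-)* replicate 2, 1 entry was called lower, and without double mutant replicate 1, 2 entries were called higher. The comparison uses the same *daf-2(-)* libraries as the one with WT, so the entries that appear in both are not independent.

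*cutl-24*, on chromosome IV and chosen here after its values were seen, was the one *cutl* gene with both *daf-2(-)* libraries above the 4 others. It was at 2.12 and 2.66 RPKM in WT, 4.24 and 3.97 in *daf-2(-)*, and 2.63 and 1.46 in the double mutant. Its differences of 0.59 from WT and 0.77 from the double mutant were both under 2-fold on the log2(RPKM + 1) scale and not called. In mean RPKM *daf-2(-)* was at 1.72 times WT and 2.01 times the double mutant. The difference from the double mutant was called after either scaling of the libraries, with a pseudocount of 0.1 RPKM and without double mutant replicate 1. With *cut-1*, *cut-5* and *cut-6* it makes 4 entries that were highest in both *daf-2(-)* libraries, against a background of 15.9%, while 19 entries were lowest in both, against 33.9%.

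**Figure D4:**
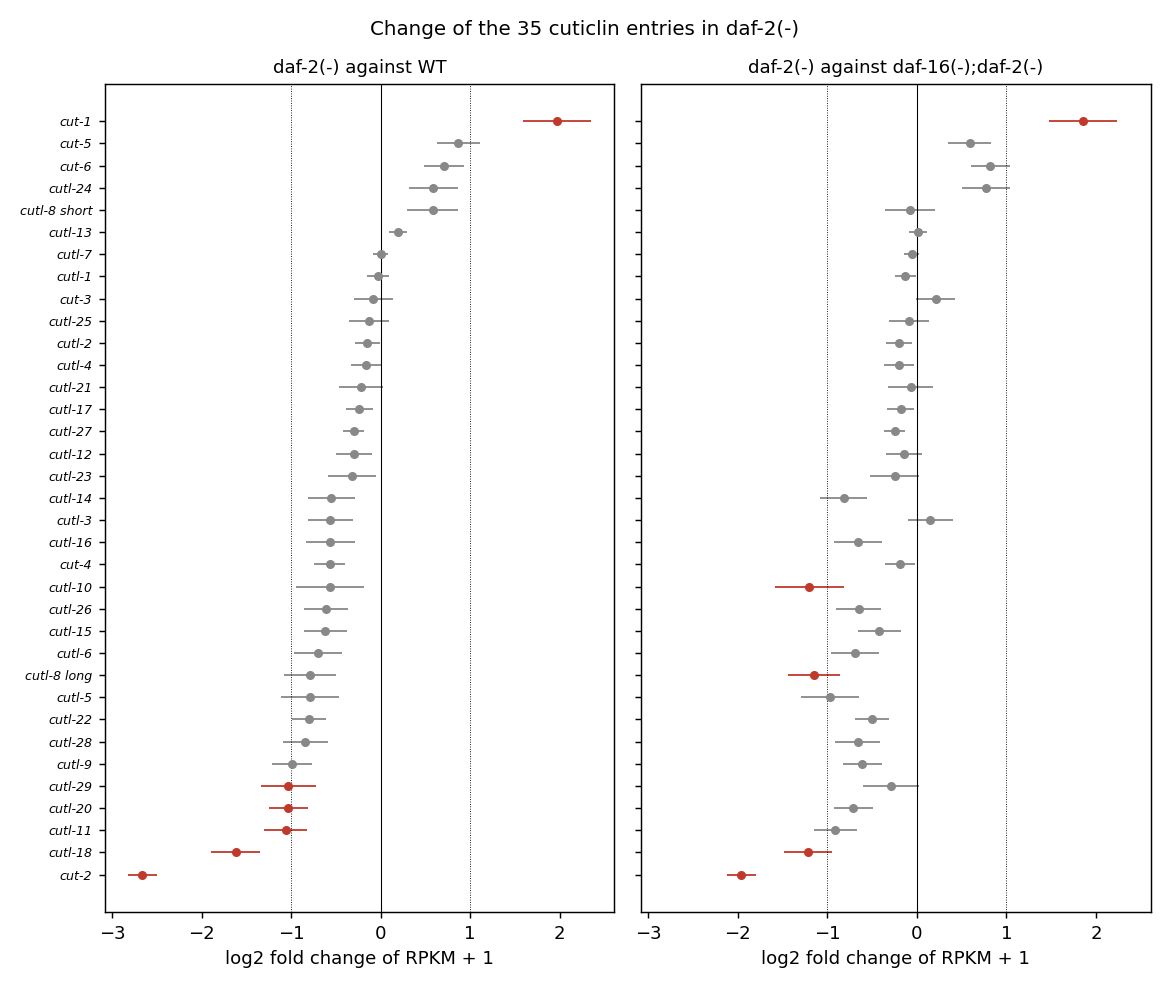
Log2 fold change of RPKM + 1 of each of the 35 cuticlin entries in *daf-2(-)* against WT (left) and against *daf-16(-);daf-2(-)* (right), with bars of 1 standard error from limma, ordered by the left panel, called entries in red and dotted lines at 2-fold. *cut-1* is the highest entry in both panels (1.97 and 1.85) and *cut-2* the lowest (-2.66 and -1.96), and 28 entries lie below 0 in each.

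Between the double mutant and WT, limma called 0 cuticlins in either direction (background 1.42% higher and 0.736% lower), and likewise 0 at the adjusted p (0.116% and 0.0387%). At an unadjusted p of at most 0.05, 0 were higher, against 14.9% of all entries, and 3 were lower (*cut-2*, *cutl-3* and *cutl-29*), against 4.33%. *cutl-3*, on the X chromosome, was at 9.02 and 7.23 RPKM in WT, 6.11 and 4.35 in *daf-2(-)*, and 4.94 and 4.23 in the double mutant, so that both mutants were below WT. Both double mutant libraries lay below both WT libraries for 13 entries, or 37.1%, against 15.9% of all entries, and above them for 5 against 32.2%. Those 5 (*cut-1*, *cut-5*, *cutl-7*, *cutl-13* and the shorter *cutl-8*) were under 1 RPKM in every library of these strains. The difference was below 0 for 21 entries, against 41.1% of all. The median log2 difference of the cuticlins was -0.06, and that of all entries 0.05. Without double mutant replicate 2, 1 entry (*cutl-10*, log2 difference 1.14) was called higher.

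By order of the means, WT was highest for 19 of the 35 entries (25.7% of all entries), the double mutant for 11 (44.2% of all) and *daf-2(-)* for 5 (30.2% of all), and *daf-2(-)* was lowest for 26 (52.6% of all). Both WT libraries lay above all 4 mutant libraries for 11 entries, against a background of 8.03%, and below them for 4, against 6.58%. Those 4 (*cut-1*, *cut-5*, *cutl-13* and the shorter *cutl-8*) were under 1 RPKM in WT. Both double mutant libraries were above the 4 others for 1 entry (*cutl-7*, at 0.04 RPKM), against 25.3%, and below them for 1 (*cut-3*), against 6.87%. The other *cutl* entries were under 2-fold in each comparison on the log2(RPKM + 1) scale, but the added 1 RPKM weighs on the low ones, and some were called under other settings. At a pseudocount of 0.1 RPKM 6 of them were called lower in *daf-2(-)* than in WT (*cutl-5*, *cutl-6*, *cutl-9*, *cutl-22*, *cutl-27* and *cutl-28*), and at 0.5 RPKM 3 were (*cutl-5*, *cutl-9* and *cutl-22*). Of these, *cutl-9* and *cutl-22* are given after their values were seen. *cutl-9* was at 2.53 and 2.09 RPKM in WT, 0.87 and 0.48 in *daf-2(-)*, and 1.34 and 1.77 in the double mutant, a log2 difference of -0.99 from WT (limma adjusted p = 0.0204) and a mean in WT 3.42 times that in *daf-2(-)*. *cutl-22* was at 1.58 and 0.83 RPKM in WT, 0.26 and 0.23 in *daf-2(-)*, and 0.78 and 0.74 in the double mutant, a log2 difference of -0.80 from WT (limma adjusted p = 0.0249) and a mean in WT 4.92 times that in *daf-2(-)*. In both genes the *daf-2(-)* libraries were the lowest. The most abundant of the other *cutl* entries, *cutl-15*, was at 13.2 and 10.6 RPKM in WT, 8.50 and 6.37 in *daf-2(-)*, and 11.6 and 8.95 in the double mutant.

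Other genes of the same matrix were read from lists chosen with results of these data known. Of 6 other ZP-domain genes of the apical matrix, 4 were called lower in *daf-2(-)* than in WT and the same 4 lower than in the double mutant, with medians of -1.23 and -1.17, and 0 were called between the double mutant and WT, where the median was -0.19. They were *noah-1* and *noah-2*, matrix genes needed for the embryo to elongate, *fbn-1*, a fibrillin-like gene that helps the embryonic epidermis resist mechanical force, and *let-653*, which shapes narrow tubes and the vulva. *noah-1* was at 110 and 77.5 RPKM in WT, 34.6 and 24.9 in *daf-2(-)*, and 103 and 74.9 in the double mutant, a log2 difference of -1.62 from WT (limma adjusted p = 0.00937). *noah-2* was at 145 and 108 RPKM in WT, 50.6 and 41.2 in *daf-2(-)*, and 113 and 89.4 in the double mutant, a log2 difference of -1.44 from WT (limma adjusted p = 0.00734). As with *cut-2*, all *daf-2(-)* values of these genes were below those of both other strains.

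Of 10 genes for tyrosine cross-linking and processing of cuticle proteins, 1 was called lower in *daf-2(-)* and 0 higher, with medians of -0.09 against WT and -0.34 against the double mutant. That gene was *skpo-1* (F49E12.1 in the tables), a peroxidase, at 53.9 and 68.6 RPKM in WT, 26.1 and 24.3 in *daf-2(-)*, and 116 and 103 in the double mutant. It fell by 1.24 on the log2 scale against WT (limma adjusted p = 0.00621) and, relative to the double mutant, by 2.07 (limma adjusted p = 0.000891). Of 10 genes of alae and seam cells, 5 were called lower in *daf-2(-)* than in WT (median -0.90) and 3 lower than in the double mutant (median -0.69), with 0 higher in either, and 1 (*nhr-73*) was called lower in the double mutant than in WT. Among the 5 were *sym-1* and *lpr-3*, both of the outer matrix, *nhr-73*, a nuclear hormone receptor gene that was below WT in both mutants (log2 differences of -1.81 for *daf-2(-)* and -1.20 for the double mutant), and *egl-18*, a GATA factor gene of seam cells. The difference of *nhr-73* between the double mutant and WT had a limma adjusted p of 0.208.

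Some epidermal markers were also lower in *daf-2(-)*. Of 10 such genes 6 were called lower than in WT and 5 lower than in the double mutant, 0 were called higher, and the differences of *elt-3* (0.01 from WT) and *ajm-1* (0.28 from WT), named here after their values were seen, were not below 0. The summed level of the 10 was 388 to 560 RPKM in WT, 182 to 219 in *daf-2(-)* and 428 to 448 in the double mutant. Of 17 germline and early embryo markers, 9 were called lower than in WT and 12 lower than in the double mutant, and 3 (*glh-1*, *pgl-1* and *pgl-3*) were called higher in the double mutant than in WT. For these 3 the limma adjusted p was 0.177, 0.147 and 0.119. The called genes are germline and oocyte genes, and 0 of the 5 early embryo markers were called in any comparison. However, *end-1*, *end-3* and *med-2* were under 1 RPKM in every library. Genes that low cannot reach 2-fold on the log2(RPKM + 1) scale, so they could not be called. *med-2* was at 0.85 and 0.70 RPKM in WT and 0.13 and 0.20 in *daf-2(-)* (log2 difference -0.61, limma adjusted p = 0.0241). *hlh-1* and *pha-4* differed from WT by -0.14 and -0.19 in *daf-2(-)*. The list had sums of 1056 to 1087 RPKM in WT, 372 to 479 in *daf-2(-)* and 1688 to 2303 in the double mutant. None of the markers of either list was at 0 in both libraries of a strain. The cultures held worms of mixed stages, and the part of epidermal content or stage in the cuticlin differences was not tested.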

How the data were processed

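The reads were made with an unstranded kit, so reads of overlapping genes on opposite strands are not separated. Per the paper's methods the authors aligned them to WS230 in CLC Genomics Workbench and computed RPKM per gene, and the submitters' processing notes name CASAVA 1.8.2. The 3 deposited tables of RPKM were joined by name. An entry missing from a table was set to 0, and 6 repeated names were left out. The deposited *daf-2(-)* table writes commas inside some large values, and these were removed.

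All 20661 entries were tested with limma 3.58.1 in R 4.3.3 on log2(RPKM + 1), in 1 fit over 6 libraries with a trend of the spread. Calls needed p of at most 0.05 and 2-fold, with Benjamini-Hochberg adjusted p over all entries beside. The authors' test of Baggerly needs read counts and was not used. Depth was estimated from the steps of RPKM in genes with under 900 exon bases (WBcel235, another build than WS230). Of the low values used, 61.1% to 64.7% came within 0.2 of whole reads, so read numbers are approximate.

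Alternatives were pseudocounts of 0.1 and 0.5 RPKM, a filter at a mean of 1 RPKM, median-ratio and quantile scaling, no trend, separate fits, a replicate block, adjusted p, the ratio of means and each library left out. Values are printed for the *cut* genes and the called entries, full statistics for up to 4 called entries with the largest change per comparison and direction. Outside this rule, values are also printed for the uncalled *cutl-3*, *cutl-7*, *cutl-9*, *cutl-15*, *cutl-22*, *cutl-24* and the shorter *cutl-8*. Members and 11 gene lists were chosen with earlier results of these data known. Of the list genes, 5 were matched under another name in the tables. Sequences and binding data were not used here.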

Additional observations from a re-analysis of the deposited data

How the results depend on the processing

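With 2 libraries a strain, limma borrowed the spread from all entries, and a strain left with 1 library was assumed to vary like the others. Values of single genes were followed across the settings only for the *cut* genes and the called *cutl* entries. Of these values, 9 changed sign, all in differences that were not called. Over all 35 entries, median-ratio scaling moved the number below 0 from 28 to 26 against WT. Against the double mutant it moved from 28 to 21. *cut-3* in *daf-2(-)* against WT (-0.08) became 0.13 after median-ratio scaling, 0.08 after quantile normalization, 0.04 without WT replicate 2 and 0.03 without *daf-2(-)* replicate 1 (-0.21 to 0.04 with a library left out). Against the double mutant, *cut-4* (-0.19) became 0.22 and 0.30 under the scalings and *cutl-29* (-0.29) became 0.05 after median-ratio scaling and 0.04 without *daf-2(-)* replicate 2 (-0.63 to 0.04 with a library left out), while *cut-6* in the double mutant against WT (-0.11) became 0.01 without double mutant replicate 1 (-0.23 to 0.01). The calls of *cut-1* and *cut-2* in both *daf-2(-)* comparisons and of *cutl-18* against WT held in every fit, and those of *cutl-8*, *cutl-10*, *cutl-11*, *cutl-20*, *cutl-29* and, against the double mutant, *cutl-18* were lost in 3 to 5 fits each, median-ratio scaling and the fit without *daf-2(-)* replicate 2 among them each time. *cut-5* against WT was called in 5 other fits and *cut-6* against the double mutant in 3. Cuticlins called higher than WT numbered 2 at a pseudocount of 0.1 or 0.5 RPKM and after median-ratio scaling (1 to 2 with a library left out), and those called lower 12 and 9 at these pseudocounts and 2 under either scaling (2 to 9). Against the double mutant 3 were higher at 0.1 RPKM and under either scaling (1 to 2), and 9 were lower at 0.1 RPKM and 1 after median-ratio scaling (1 to 4). The double mutant had 1 entry higher than WT at either pseudocount (0 to 1). The causes were not tested. Same-numbered replicates deviated together with r of 0.109, 0.158 and -0.163 across genes, so the numbers were not taken as pairs, and with the replicate block the counts stayed at 1 and 5 against WT, 1 and 4 against the double mutant and 0 and 0 between the double mutant and WT. Crossing the numbers, chosen after seeing the data, gave 1 and 4 against the double mutant. Low genes such as *cut-1* rest on few reads, and depth limits what can be said of the 11 entries under 1 RPKM.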

Other observations

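The other marker lists gave the following values. Of 6 adult cuticle and yolk genes, 3 adult collagen genes (*col-19*, *col-7* and *col-62*) were called higher in *daf-2(-)* than in WT, 0 were called against the double mutant, and 2 (*col-19* and *col-62*) were higher in the double mutant than in WT. For these 2 the limma adjusted p was 0.187 and 0.169. *col-19* fell just short of the call in *daf-2(-)* against the double mutant, with a log2 difference that rounds to 1.0 (limma adjusted p = 0.0625). Limma called 0 of 8 sperm markers in any comparison, with medians of 0.56, 0.17 and 0.48 in *daf-2(-)* against WT, *daf-2(-)* against the double mutant and the double mutant against WT. Of 7 body wall muscle genes, 2 (*act-4* and *mlc-3*) were called higher in *daf-2(-)* than in the double mutant and 0 than in WT. Of 6 intestine genes, 1 (*ges-1*, a gut esterase) was called higher in *daf-2(-)* than in each other strain. Of 7 genes of the pharynx cuticle and glands, 3 were called lower in *daf-2(-)* than in WT and 4 lower than in the double mutant. Of the 3, *phat-2* had a limma adjusted p of 0.106. The double mutant had 1 of the 7 (*pqn-74*, log2 difference -1.22, limma adjusted p = 0.177) called lower than in WT. The summed level of the 7 was 59.6 to 66.0 RPKM in WT, 8.67 to 11.3 in *daf-2(-)* and 26.5 to 64.7 in the double mutant.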
